A study of Homo sapiens with 36 samples.

Results

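The 8 genes described here are known for their roles in osteoblasts and bone remodelling, and were followed through 36 RNA-seq libraries of U2OS-GRα cells. The members were taken by symbol from the gene count table, and 8 of 8 were found among its 15186 genes: RUNX2, BMP2, BMP4, SPARC, SPP1, MGP, ALPL and TNFRSF11B. U2OS is a human osteosarcoma line, and per the labels these cells carry a stably transfected glucocorticoid receptor alpha, so a receptor transgene is present in every group. Whether the line is 1 clone is not given in the sources used here. Cells were grown in 5% serum and transfected with siRNA, and 48 h later received 100 nM dexamethasone (dex, a synthetic glucocorticoid) or ethanol as vehicle (etoh in the labels) for 8 h. The 6 siRNA conditions were the non-silencing control siNSsiNS; siHic5siNS, aimed at Hic-5; siCHD9siNS, aimed at the chromatin remodeller CHD9; siBRMsiNS, aimed at the remodeller BRM; and the double conditions siCHD9siHic5 and siBRMsiHic5. Each condition was sequenced with and without dex in 3 biological replicates made on different days, which gives 12 groups of 3 libraries. The study asked whether the remodellers are needed for the hormone response of genes that Hic-5 holds back.

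RUNX2 is the transcription factor that commits cells to the osteoblast lineage. BMP2 and BMP4 are secreted bone morphogenetic proteins that signal through SMAD1, SMAD5 and SMAD9 and promote osteoblast differentiation. SPARC (osteonectin), SPP1 (osteopontin) and MGP (matrix Gla protein) are secreted proteins of mineralised or mineral-regulating matrix, and ALPL is the tissue-nonspecific alkaline phosphatase, which frees phosphate for mineral. TNFRSF11B encodes osteoprotegerin, the decoy receptor that binds RANKL and so restrains osteoclast formation. Glucocorticoids are known to lower osteoprotegerin in osteoblastic cells, and long use of these drugs causes bone loss.

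On the GRCh38.p14 assembly RefSeq places RUNX2 at chr6:45328330-45551082, BMP2 at chr20:6767686-6780246, BMP4 at chr14:53949736-53956891, SPARC at chr5:151661096-151686915, SPP1 at chr4:87975714-87983411, MGP at chr12:14880864-14885854 and ALPL at chr1:21508984-21578410. TNFRSF11B, MGP and BMP2 were not part of the promoter search. For the other 5 of the 8 members, the RefSeq promoter table held 10 windows of 300 bases (250 before to 50 after a start). They were searched on both strands for the RUNX core ACCACA, for TGTTCT, a hexamer arm of the palindrome that the glucocorticoid receptor binds, and for the AP-1 motif TGANTCA. The RUNX core was found in 3 of the 10 windows, against 13.1% of 35116 promoter windows of the same length. TGTTCT was found in 0 of 10, against 14.8%, and TGANTCA in 1 of 10, against 7.71%. No match overlapped another motif's match (0 overlaps). The windows of RUNX2 and SPP1 are shown because SPP1 is a textbook RUNX2 target and both genes changed below, and because the distal RUNX2 window held 4 copies of the core. Capitals mark the RUNX core, and both windows are on the plus strand.
RUNX2, chr6:45328080-45328379: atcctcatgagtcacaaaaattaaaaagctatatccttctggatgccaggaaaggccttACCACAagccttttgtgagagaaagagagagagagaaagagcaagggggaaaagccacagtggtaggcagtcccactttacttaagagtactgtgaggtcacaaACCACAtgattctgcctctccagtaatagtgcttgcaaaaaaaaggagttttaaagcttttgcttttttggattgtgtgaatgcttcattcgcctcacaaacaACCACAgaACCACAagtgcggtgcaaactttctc
SPP1, chr4:87975464-87975763: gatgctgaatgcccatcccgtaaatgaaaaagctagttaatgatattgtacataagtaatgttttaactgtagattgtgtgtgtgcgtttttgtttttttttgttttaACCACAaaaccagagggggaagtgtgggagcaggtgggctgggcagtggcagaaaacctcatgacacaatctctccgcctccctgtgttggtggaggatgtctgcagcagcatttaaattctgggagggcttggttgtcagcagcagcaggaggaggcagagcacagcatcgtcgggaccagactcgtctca
A match describes letters and not binding, and the deposited files measure no binding.

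The libraries held 27442282 to 47148257 counts. Levels are in CPM (counts relative to the library total, scaled by upper-quartile factors), given as mean ± SD over the 3 libraries of a group, and changes are edgeR log2 fold changes ± SE with p-values adjusted over all 15179 tested genes. Genes with an adjusted p below 0.05 count as called. The siRNA targets were checked first. TGFB1I1, the gene of Hic-5, stood at 28.4 ± 0.785 CPM in siNSsiNS vehicle libraries and at 7.07 ± 3.58, 7.47 ± 1.59 and 5.23 ± 1.09 CPM with siHic5siNS, siCHD9siHic5 and siBRMsiHic5. Libraries 1 to 3 of siHic5siNS read 5.27, 11.2 and 4.75 CPM with vehicle and 5.46, 7.63 and 4.23 CPM with dex. Library 2 was thus the least depleted, and the siHic5siNS calls of RUNX2 and SPP1 below were lost without its vehicle library. SMARCA2, the gene of BRM, stood at 30.3 ± 4.74 CPM in the control and at 8.76 ± 1.18 and 7.56 ± 1.53 CPM with siBRMsiNS and siBRMsiHic5. CHD9 stood at 88.6 ± 9.46 CPM in the control, at 60.1 ± 8.94 CPM with siCHD9siNS and at 123 ± 17.9 CPM in the libraries labelled siCHD9siHic5, which goes against that label. CHD9 was also at 45.2 ± 5.50 CPM with siBRMsiHic5 and at 68.1 ± 11.4 CPM with siHic5siNS (adjusted p = 0.0793). With dex, CHD9 in siCHD9siNS read 89.2, 58.2 and 83.7 CPM and overlapped the control dex libraries at 97.4, 91.6 and 81.5 CPM. Groups are therefore named by their labels, and no change is assigned to loss of CHD9.

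Compared per kilobase of exon, control vehicle libraries held SPARC at 292 CPM per kb, far above BMP4 at 61.5. TNFRSF11B followed at 7.38 and RUNX2 at 6.22 CPM per kb. SPP1, BMP2 and ALPL lay close together at 2.96, 2.93 and 2.77, and MGP was last at 0.0626 CPM per kb. Of 8 osteoblast markers, RUNX2, COL1A1, ALPL and SPARC were tested, with COL1A1 at 2034 CPM in control vehicle libraries, and SP7, COL1A2, BGLAP and IBSP were not analysed here. All members except MGP were above 1 CPM in 36 of 36 libraries. MGP passed that level in 9 libraries, the 6 siHic5siNS libraries and 1 each of siBRMsiNS dex (1.07 CPM), siCHD9siHic5 dex (1.74 CPM) and siBRMsiHic5 vehicle (1.40 CPM). In bulk libraries a lower level cannot tell fewer cells that make a transcript from less transcript per cell.

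**Figure D1:**
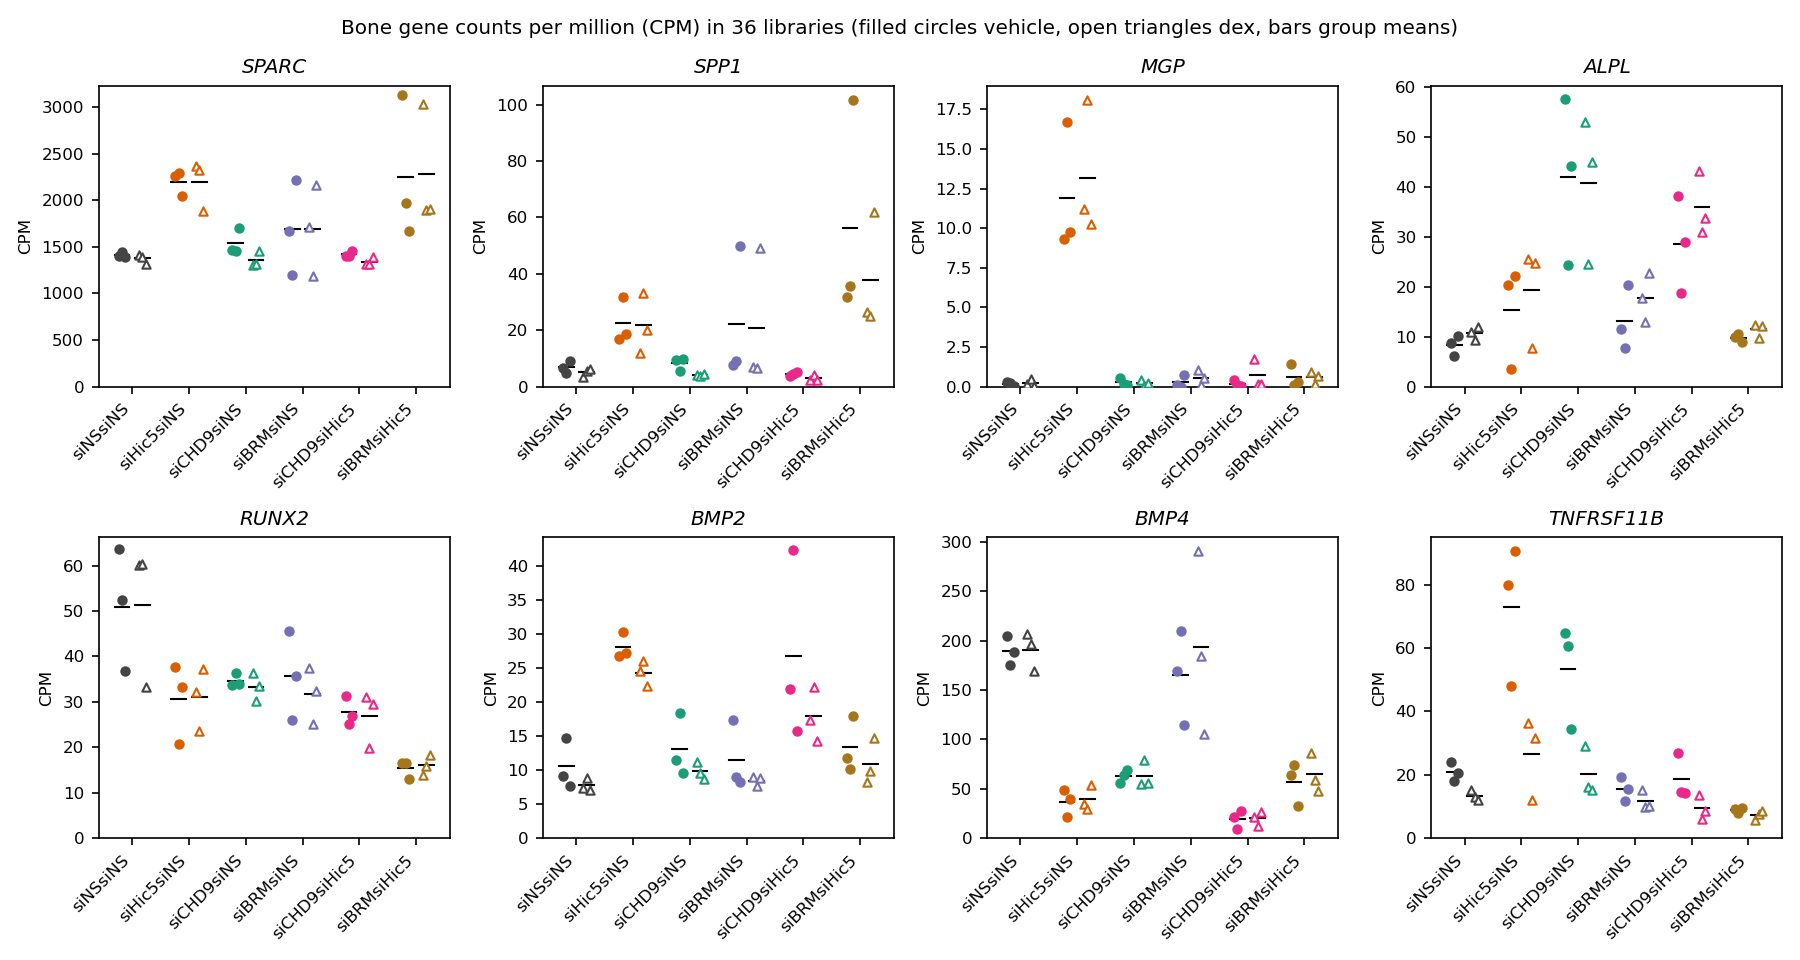
CPM of each gene in the 36 libraries, by siRNA condition on the horizontal axis, with filled circles for vehicle, open triangles for dex and bars for group means. MGP stands at 9.34 to 18.1 CPM in the 6 siHic5siNS libraries, and BMP4 lies lower in siHic5siNS, siCHD9siNS and both double conditions than in siNSsiNS.

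With siHic5siNS in vehicle, 7 of the 8 genes were called: MGP, TNFRSF11B, SPP1, BMP2 and SPARC rose, BMP4 and RUNX2 fell, and ALPL was not called. In this comparison 53.1% of all tested genes were called, so a high count is no feature of the bone genes. The genes did not move as 1 block, since both ligands of the BMP family moved in opposite directions and the lineage factor fell while 3 matrix genes rose. The counts for the other vehicle comparisons with siNSsiNS were 3 of 8 with siCHD9siNS (32.3% of all genes), 0 of 8 with siBRMsiNS (6.45%), 4 of 8 in the libraries labelled siCHD9siHic5 (52.6%) and 5 of 8 with siBRMsiHic5 (48.9%). For siBRMsiNS, 2 of the 8 had an unadjusted edgeR p under 0.05, and DESeq2 and limma also called 0.

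**Figure D2:**
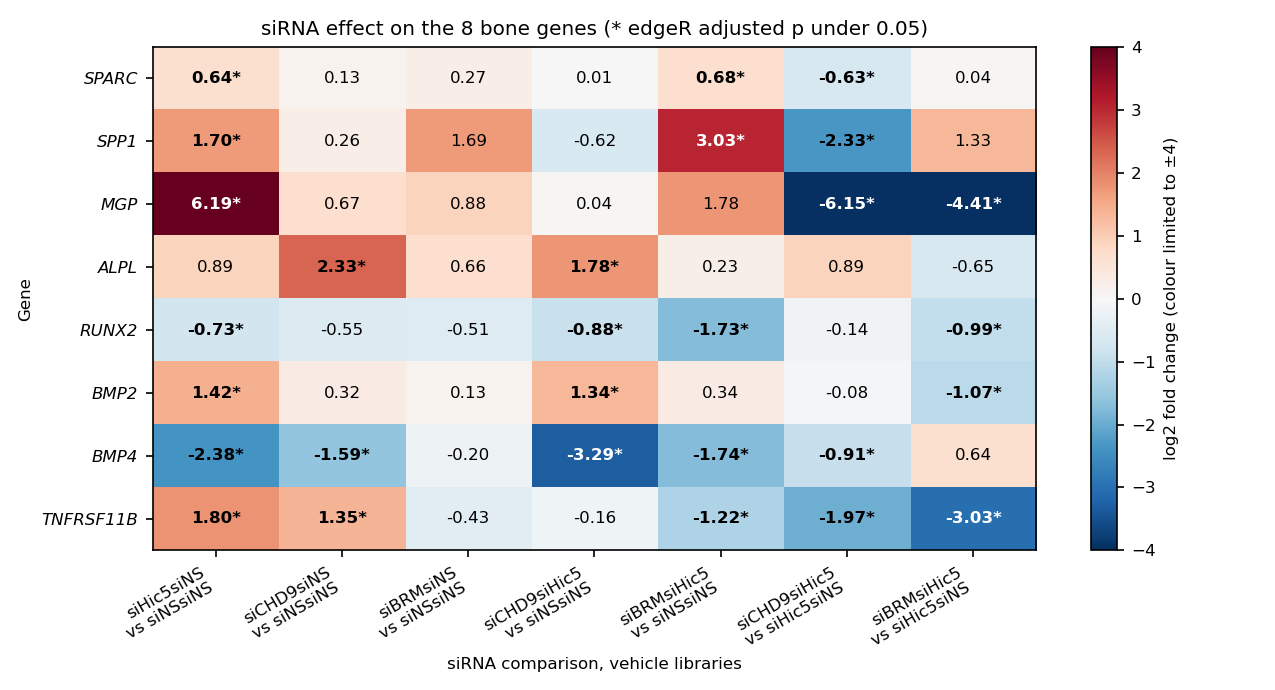
log2 fold changes of the 8 genes in the 7 siRNA comparisons among vehicle libraries, with red for higher, blue for lower and an asterisk for an edgeR adjusted p under 0.05. The largest values belong to MGP, at 6.19 with siHic5siNS and at -6.15 and -4.41 when the double conditions are set against it.

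RUNX2 read 63.7, 52.4 and 36.8 CPM in control vehicle libraries 1 to 3, and 37.8, 20.8 and 33.3 CPM with siHic5siNS. The groups overlapped, because control library 3 lay below siHic5siNS library 1. The log2 change was -0.73 ± 0.24 (adjusted p = 0.0125), and it was not called without control library 1 (-0.54, adjusted p = 0.0906) or without siHic5siNS library 2 (-0.52, adjusted p = 0.0978). With siBRMsiHic5 RUNX2 read 16.6, 16.6 and 13 CPM, below every control library and every siHic5siNS library. It fell by 1.73 ± 0.25 on the log2 scale against the control, to 30.2% of its level (adjusted p = 4.51e-06), and by 0.99 ± 0.25 against siHic5siNS (adjusted p = 0.00152). Markers of adipocytes, a fate that RUNX2 is known to oppose, moved in the same comparison: of 4 tested of 6, PPARG rose by 1.99 ± 0.41 (adjusted p = 0.000287) and FABP4 by 2.18 ± 0.65 (adjusted p = 0.00673, from 0.187 CPM), LPL fell by 0.67 ± 0.28 (adjusted p = 0.0472) and CD36 was not called (adjusted p = 0.998). Their summed level was 31.9 to 50.2 CPM with siBRMsiHic5 and 11.3 to 17.5 CPM in the control. Most of the former was PPARG, at a mean of 34.7 CPM. The sum was also 19.6 to 38.2 CPM in siBRMsiNS and 17.6 to 23.4 CPM in siHic5siNS vehicle libraries. ADIPOQ and PLIN1 were not analysed here, and the part of these markers in the RUNX2 value was not tested. In the libraries labelled siCHD9siHic5 RUNX2 read 31.3, 25.0 and 26.9 CPM, also below all 3 control libraries, at a log2 change of -0.88 ± 0.24 (adjusted p = 0.00356). The single conditions siCHD9siNS and siBRMsiNS gave -0.55 ± 0.24 and -0.51 ± 0.24, neither of which was called (adjusted p = 0.0788 and 0.178).

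The list of other osteoblast transcription factors had 14 of 18 genes tested, and their changes ran both ways. With siHic5siNS 4 rose and 2 fell, at a median log2 change of 0.00117 against -0.0104 for all genes, of which 53.1% were called. JUND, an AP-1 subunit, rose by 1.89 ± 0.27 (adjusted p = 1.66e-06), ATF4, a factor needed for late osteoblast function, by 0.75 ± 0.15 (adjusted p = 0.00011), and SOX9, the master factor of chondrocytes, by 0.80 ± 0.17 (adjusted p = 0.000347). Of the other chondrocyte markers tested, ACAN (aggrecan) rose by 3.07 ± 0.70 (adjusted p = 0.000574) and MATN3 (matrilin) fell by 2.16 ± 0.28 (adjusted p = 4.7e-07). The 3 tested of 5 summed to 232 to 263 CPM with siHic5siNS and 129 to 168 CPM in the control, and COL2A1 and COL10A1 were not analysed here. Of these factors 4 rose and 4 fell in the libraries labelled siCHD9siHic5 (52.6% of all genes called). ATF4 was 1.52 ± 0.15 higher there (adjusted p = 4.4e-09) while JUND was lower, at -1.43 ± 0.27 (adjusted p = 6.08e-05). With siBRMsiHic5 2 rose and 3 fell (48.9% of all genes called), among them ZNF521, a zinc-finger protein that binds RUNX2, at -1.09 ± 0.23 (adjusted p = 0.000372). The numbers of factors called were near or below these shares and are no feature of the list.

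BMP4 and BMP2 changed in opposite directions. BMP4 read 205, 176 and 188 CPM in control vehicle libraries and 48.6, 21.2 and 39.5 CPM with siHic5siNS. Every siHic5siNS library lay far below the lowest control library, and the log2 change was -2.38 ± 0.39, or 19.2% of control (adjusted p = 1.11e-05). BMP2 read 9.19, 14.8 and 7.71 CPM in the control and 26.8, 30.4 and 27.3 CPM with siHic5siNS, again without overlap but upward, at 1.42 ± 0.32 (2.67-fold, adjusted p = 0.000539). The libraries labelled siCHD9siHic5 showed the same pair of directions: BMP4 at 21.8, 9.35 and 27.03 CPM had a log2 change of -3.29 ± 0.40 (adjusted p = 1.49e-07), and BMP2 at 21.9, 42.5 and 15.8 CPM had one of 1.34 ± 0.32 (adjusted p = 0.000879). With siBRMsiHic5 BMP4 fell by 1.74 ± 0.38 (63.6, 74.2 and 32.9 CPM, adjusted p = 0.000456), while BMP2 at 11.8, 10.2 and 17.9 CPM overlapped the control and was not called (0.34 ± 0.32, adjusted p = 0.384). With siCHD9siNS only BMP4 of this pair was called, at 55.4, 64.1 and 69.0 CPM and -1.59 ± 0.37 (adjusted p = 0.00187). BMP4 with siBRMsiNS read 170, 210 and 115 CPM, a range that spans the control libraries (-0.20 ± 0.37, adjusted p = 0.757).

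**Figure D3:**
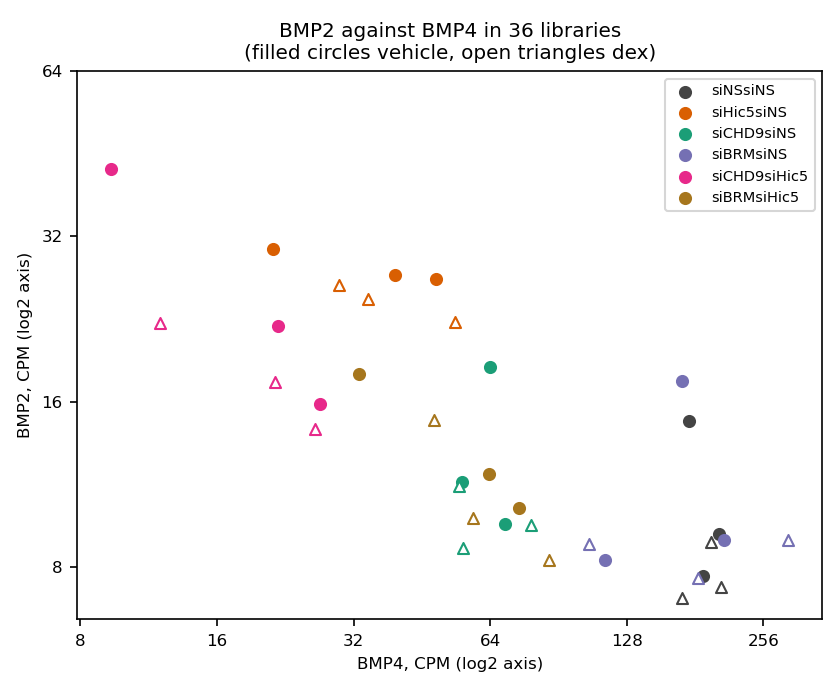
BMP2 against BMP4 in the 36 libraries, both in CPM on log2 axes, with filled circles for vehicle and open triangles for dex. The libraries labelled siCHD9siHic5 and the siHic5siNS libraries sit at upper left, with BMP4 from 9.35 to 53.6 CPM and BMP2 from 14.2 to 42.5 CPM, and the siNSsiNS and siBRMsiNS libraries sit at lower right.

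Across the 36 libraries the Pearson correlation of log2(CPM + 0.5) between BMP2 and BMP4 was -0.767, the lowest of the 28 pairs of members. It describes the plot of BMP2 against BMP4, in which libraries of 1 group share a treatment, and it carries no test.

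The other genes of the BMP pathway were counted by role. Over all genes 3698 rose and 3732 fell with siBRMsiHic5 (48.9% called), and 3591 rose and 4386 fell in the libraries labelled siCHD9siHic5 (52.6%). The shares called were 53.1% with siHic5siNS and 32.3% with siCHD9siNS. Of the other BMP ligands 7 of 11 were tested, and siBRMsiHic5 lowered 4 and raised 0, at a median log2 change of -0.62 against -0.00643 for all genes; BMP7, a ligand used in bone repair, was at -0.62 ± 0.16 (adjusted p = 0.00256). Of 12 receptors and SMADs, 6 fell and 0 rose with siBRMsiHic5, led by SMAD5, a transducer of BMP signals, at -0.95 ± 0.16 (adjusted p = 3.49e-05), and the type I receptor ACVR1, at -0.88 ± 0.16 (adjusted p = 8.92e-05). Of 14 tested antagonists and feedback genes, 9 fell and 0 rose in the libraries labelled siCHD9siHic5 (median -1.26 against -0.053), 7 fell and 2 rose with siHic5siNS, 6 fell and 0 rose with siCHD9siNS, and 5 fell and 1 rose with siBRMsiHic5. SMAD6, an inhibitory SMAD that BMP signals induce, fell in each of these 4, with log2 changes of -4.98 ± 0.46, -1.81 ± 0.39, -2.79 ± 0.40 and -2.31 ± 0.40 in that order (adjusted p = 1.39e-09, 0.000321, 1.06e-05 and 3.54e-05). The secreted BMP antagonists CHRD and CHRDL1 were at -2.35 ± 0.22 and -3.45 ± 0.34 in the libraries labelled siCHD9siHic5 (adjusted p = 1.76e-09 and 3.99e-09).

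Among BMP target genes none was called higher in the 5 comparisons with the control. Of 9 tested, SMAD6 and SMAD7 among them, 4 fell with siHic5siNS, 2 with siCHD9siNS, 0 with siBRMsiNS and 6 each in both double conditions. Over all genes, 53.1% were called in either direction with siHic5siNS, 32.3% with siCHD9siNS and 6.45% with siBRMsiNS. The shares were 52.6% in the libraries labelled siCHD9siHic5 and 48.9% with siBRMsiHic5. The number called with siHic5siNS or siCHD9siNS is therefore no feature of the BMP targets. For the double conditions the numbers were not tested against these shares, and no such feature is claimed. ID2, an inhibitor of basic helix-loop-helix factors, fell by 1.01 ± 0.27 with siHic5siNS (adjusted p = 0.00258), by 1.45 ± 0.27 in the libraries labelled siCHD9siHic5 (adjusted p = 6.49e-05) and by 1.20 ± 0.27 with siBRMsiHic5 (adjusted p = 0.00067). The median log2 change of the list was -1.12 in the former double condition and -1.20 in the latter, against -0.053 and -0.00643 over all genes. SMAD6 and SMAD7 stand on both this list and the list of feedback genes, so these counts share members.

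Among the matrix genes, SPARC was the most abundant and the least variable. It read 1404, 1441 and 1391 CPM in control vehicle libraries and 2261, 2290 and 2044 CPM with siHic5siNS. All 3 siHic5siNS libraries were above all control libraries, at a log2 change of 0.64 ± 0.21 (1.56-fold, adjusted p = 0.0112). With siBRMsiHic5 it read 3132, 1968 and 1669 CPM (0.68 ± 0.21, adjusted p = 0.00866), and without library 1 the change was 0.36 and not called (adjusted p = 0.15). In the libraries labelled siCHD9siHic5 SPARC read 1405, 1399 and 1457 CPM, close to the control, which is 0.63 ± 0.21 below siHic5siNS on the log2 scale (adjusted p = 0.0137).

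SPP1 moved in the same comparisons as SPARC but further. It read 6.58, 4.80 and 9.23 CPM in the control, 16.9, 31.9 and 18.5 CPM with siHic5siNS and 31.6, 35.7 and 102 CPM with siBRMsiHic5. Neither group overlapped the control. The log2 change was 1.70 ± 0.66 with siHic5siNS (adjusted p = 0.031) and 3.03 ± 0.68, or 8.19-fold, with siBRMsiHic5 (adjusted p = 0.000685). The former call was lost without siHic5siNS library 2 (1.36, adjusted p = 0.118), without control library 1 (1.67, adjusted p = 0.0769) or without control library 2 (1.501, adjusted p = 0.107). SPP1 in the libraries labelled siCHD9siHic5 read 3.73, 4.48 and 5.17 CPM, which lies 2.33 ± 0.67 below siHic5siNS on the log2 scale (adjusted p = 0.00559) and overlaps the control.

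With siBRMsiNS 1 library set the value of SPP1. The libraries read 7.57, 8.99 and 49.95 CPM, and the change of 1.69 ± 0.66 (adjusted p = 0.108) became 0.27 without library 3 (adjusted p = 0.914). It was called only without library 1, at 2.099 (adjusted p = 0.0365). The dex library of the same number was high too, at 49.0 CPM against 7.02 and 6.66. SPARC was likewise highest in replicate 3 of siBRMsiNS, at 2222 CPM with vehicle and 2168 CPM with dex. SPP1 in replicate 3 of siBRMsiHic5 was the highest of that condition as well, at 102 CPM with vehicle and 61.8 CPM with dex. SPP1 is also made by macrophages, and the haematopoietic markers CD68 and CSF1R, 2 tested of 6, summed to 11.4 to 16.8 CPM in siBRMsiHic5 vehicle libraries against 3.47 to 7.26 CPM in the control. CD68, a lysosomal protein, rose by 1.87 ± 0.36 there (adjusted p = 0.000141), while CSF1R was not called. Most of the sum was CD68, at a mean of 12.5 CPM in siBRMsiHic5 vehicle libraries. PTPRC, CD14, CD3E and HBB were not analysed here, and the part of these transcripts in the SPP1 value was not tested.

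MGP was close to silent outside siHic5siNS. In control vehicle libraries it had 8, 6 and 1 counts (0.267, 0.200 and 0.0282 CPM), and with siHic5siNS 289, 496 and 359 counts (9.34, 16.7 and 9.73 CPM). The fitted log2 change was 6.19 ± 1.10 (adjusted p = 3.69e-05), and its size rests on the 15 counts of the control group. The other vehicle groups had means of 0.173 to 0.597 CPM. Both double conditions lay near the control level rather than near siHic5siNS, at 0.405, 0.0932 and 0.0216 CPM in the libraries labelled siCHD9siHic5 and 1.40, 0.0819 and 0.303 CPM with siBRMsiHic5. Against siHic5siNS these were -6.15 ± 1.08 (adjusted p = 3.46e-05) and -4.41 ± 0.95 (adjusted p = 0.000375) on the log2 scale.

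Other bone matrix genes, 18 of 25 tested, divided in the same comparisons. With siHic5siNS 11 rose and 3 fell (median 1.07 against -0.0104 for all genes, of which 53.1% were called, 3940 up and 4126 down). FN1 (fibronectin) was 2.65 ± 0.36 higher (adjusted p = 1e-06), TNC (tenascin C) 2.29 ± 0.29 higher (adjusted p = 3.39e-07) and the collagen gene COL5A2 1.53 ± 0.25 higher (adjusted p = 1.05e-05). DCN (decorin) fell by 4.78 ± 0.75 (adjusted p = 7.75e-06) from a control level of only 0.659 CPM. Against siHic5siNS, siBRMsiHic5 had 11 lower and 2 higher (median -1.02, with 49.4% of all genes called, 3826 up and 3679 down). There FN1 was at -2.81 ± 0.36 (adjusted p = 5.18e-07) and the collagen chaperone SERPINH1 at -1.05 ± 0.15 (adjusted p = 2e-06). Of the same list, 7 were lower and 1 higher in the libraries labelled siCHD9siHic5 than with siHic5siNS. As 47.7% of all genes were called there, that number of calls is no feature of the list.

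The receptors of osteopontin and SPARC had 8 of 10 genes tested, of which 6 rose and 2 fell with siHic5siNS. Over all genes 53.1% were called in that comparison, 3940 up and 4126 down. The integrin genes ITGB1 and ITGA5 rose by 0.99 ± 0.15 and 1.29 ± 0.23 (adjusted p = 3.53e-06 and 4.31e-05), and CD44, a hyaluronan receptor that also binds osteopontin, rose by 1.07 ± 0.27 (adjusted p = 0.00136). ITGA4 fell by 1.17 ± 0.21 (adjusted p = 4.15e-05). CD44 was also higher with siCHD9siNS (1.41 ± 0.27, adjusted p = 0.00024), in the libraries labelled siCHD9siHic5 (1.70 ± 0.27, adjusted p = 7.66e-06) and with siBRMsiHic5 (1.45 ± 0.27, adjusted p = 8.93e-05).

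ALPL followed another pattern from the matrix genes. It read 8.75, 6.17 and 10.1 CPM in the control and 57.5, 24.4 and 44.1 CPM with siCHD9siNS, where the lowest library was above all control libraries. That is a log2 change of 2.33 ± 0.48, or 5.04-fold (adjusted p = 0.000497). The libraries labelled siCHD9siHic5 read 38.1, 18.7 and 28.9 CPM, at 1.78 ± 0.47 (adjusted p = 0.00231). With siHic5siNS it read 20.4, 3.60 and 22.1 CPM. Library 2 of that condition lay below every control library and the other 2 above, and ALPL was not called (0.89 ± 0.46, adjusted p = 0.108). In siBRMsiNS and siBRMsiHic5 it was at 0.66 ± 0.46 and 0.23 ± 0.46 and not called (adjusted p = 0.373 and 0.702).

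Other genes of mineralisation and phosphate handling had 9 of 14 tested, and none was called higher in the comparisons where ALPL was. Of these 9, 6 fell and 0 rose in the libraries labelled siCHD9siHic5 (median -0.745 against -0.053 for all genes, of which 52.6% were called). With siCHD9siNS 3 fell and 0 rose, where 32.3% of all genes were called, so that number is no feature of the list. In the libraries labelled siCHD9siHic5 PHOSPHO1, a phosphatase of matrix vesicles, was at -1.60 ± 0.28 (adjusted p = 3.21e-05). ENPP1, which makes the mineral inhibitor pyrophosphate, was at -0.93 ± 0.20 there (adjusted p = 0.000308). GGCX, the carboxylase that activates MGP, was at -0.75 ± 0.11 (adjusted p = 1.46e-06). ANKH, a pyrophosphate exporter, rose by 0.77 ± 0.11 with siHic5siNS (adjusted p = 1.54e-06) and fell by 0.66 ± 0.11 with siCHD9siNS (adjusted p = 4.83e-05). ALPP, the placental alkaline phosphatase and a close relative of the intestinal and germ-cell genes, was at -4.10 ± 0.73 in the libraries labelled siCHD9siHic5 (adjusted p = 3.52e-05), and reads shared among such copies make that value uncertain.

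TNFRSF11B was raised by 2 of the single siRNA conditions. It read 23.9, 18.01 and 20.7 CPM in control vehicle libraries, 79.9, 47.8 and 90.6 CPM with siHic5siNS and 64.7, 60.5 and 34.5 CPM with siCHD9siNS. Neither group overlapped the control, at 1.80 ± 0.35 (3.49-fold, adjusted p = 0.000113) and 1.35 ± 0.35 (2.55-fold, adjusted p = 0.00401). With siBRMsiNS it read 19.3, 11.6 and 15.4 CPM and was not called (-0.43 ± 0.35, adjusted p = 0.441). In the libraries labelled siCHD9siHic5 it read 26.95, 14.5 and 14.4 CPM, which overlaps the control (-0.16 ± 0.35, adjusted p = 0.713). With siBRMsiHic5 it read 9.32, 8.06 and 9.43 CPM, below every control library, at -1.22 ± 0.35 (adjusted p = 0.00566).

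Set against siHic5siNS in vehicle, the libraries labelled siCHD9siHic5 had 5 of the 8 genes lower and 0 higher (47.7% of all genes called), and siBRMsiHic5 had 4 lower and 0 higher (49.4%). TNFRSF11B and MGP were lower in both. TNFRSF11B fell by 1.97 ± 0.35 (adjusted p = 4.55e-05) in the former and by 3.03 ± 0.37 (adjusted p = 2.15e-07) in the latter, to 25.6% and 12.3% of the siHic5siNS level. SPARC, SPP1 and BMP4 made up the rest of the former group, and BMP2 (-1.07 ± 0.32, adjusted p = 0.00593) and RUNX2 the rest of the latter. BMP4 overlapped between the groups (-0.91 ± 0.37, adjusted p = 0.0469), and its call was lost with TMM factors (adjusted p = 0.0518), with only the groups compared (adjusted p = 0.11) and without siHic5siNS library 1 or 3 or siCHD9siHic5 library 1 or 2 (-0.996 to -0.58, adjusted p = 0.0679 to 0.236). The replicate numbers paired the libraries of siCHD9siHic5 and siHic5siNS, and the fit with that replicate block also called ALPL, at 1.01 ± 0.33 (adjusted p = 0.0113), which makes 6 of 8 (52.7% of all genes); without the block ALPL was at 0.89 ± 0.45 (adjusted p = 0.108).

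Of other genes of the RANKL system and of osteoclast support, 9 of 12 were tested; TNFSF11 (RANKL itself), its receptor gene TNFRSF11A and TNFSF10 were not analysed here. With siHic5siNS 2 rose and 3 fell (53.1% of all genes called). TRAF6, the adaptor of the RANKL receptor, rose by 0.59 ± 0.11 (adjusted p = 8.87e-05), CSF1, the macrophage growth factor that osteoclast precursors need, rose by 1.09 ± 0.41 (adjusted p = 0.0276), and the cytokine LIF fell by 0.67 ± 0.25 (adjusted p = 0.0258). The cytokine gene IL6 fell by 1.71 ± 0.53 (adjusted p = 0.0078) from a control vehicle level of only 1.28 CPM. With siCHD9siNS 1 fell and 0 rose (32.3% of all genes called). Genes often used as osteoclast markers, 4 of 6 tested, were also present: with siHic5siNS 3 rose, CTSK (cathepsin K) by 1.83 ± 0.22 (adjusted p = 1.57e-07), ACP5 by 2.05 ± 0.68 (adjusted p = 0.013) and MMP9 by 1.43 ± 0.53 (adjusted p = 0.0241). CALCR, also tested, was not called. Their summed level was 37.9 to 115 CPM in control vehicle libraries and 133 to 377 CPM with siHic5siNS. Most of the control sum was MMP9, at a mean of 82.8 CPM, against 3.64 for CTSK, 0.762 for CALCR and 0.657 for ACP5. CD68 and CSF1R summed to 3.77 to 5.41 CPM with siHic5siNS, within their range in the control. The part of these transcripts in the changes above was not tested.

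On the WNT and PTH list, which held the tested gene WISP1 also under its newer symbol CCN4, 13 of 18 symbols were tested. Of these 7 fell and 2 rose in the libraries labelled siCHD9siHic5, with SFRP1, a secreted WNT inhibitor, at -1.87 ± 0.24 (adjusted p = 3.37e-07) and LRP4, a sclerostin co-receptor, at -1.63 ± 0.21 (adjusted p = 3.18e-07). With siHic5siNS 3 rose and 3 fell, and SFRP1 was higher there, at 1.08 ± 0.23 (adjusted p = 0.000328), while WNT10B, a bone-forming WNT, was lower, at -1.95 ± 0.39 (adjusted p = 0.000161). With siCHD9siNS 6 fell and 0 rose. Over all genes 52.6%, 53.1% and 32.3% were called in these comparisons, in the order given.

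Dex was followed next, by comparing dex with vehicle inside each siRNA condition. TNFRSF11B was the only gene of the 8 called without the block in any dex response, and it was lower with dex in 18 of 18 pairs of libraries with the same condition and number. Of all tested genes 0.982% were lower in all 18. In siHic5siNS it went from 79.9, 47.8 and 90.6 CPM with vehicle to 36.2, 11.98 and 31.7 CPM with dex, without overlap. The log2 change was -1.45 ± 0.35 (to 36.6%, adjusted p = 0.0345). In siCHD9siNS it went from 64.7, 60.5 and 34.5 to 29, 16.1 and 15.1 CPM, again without overlap, at -1.41 ± 0.35 (adjusted p = 0.0441). TNFRSF11B was thus the 1 gene of 8 called in each of these conditions, where 0.876% and 0.949% of all genes were called.

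**Figure D4:**
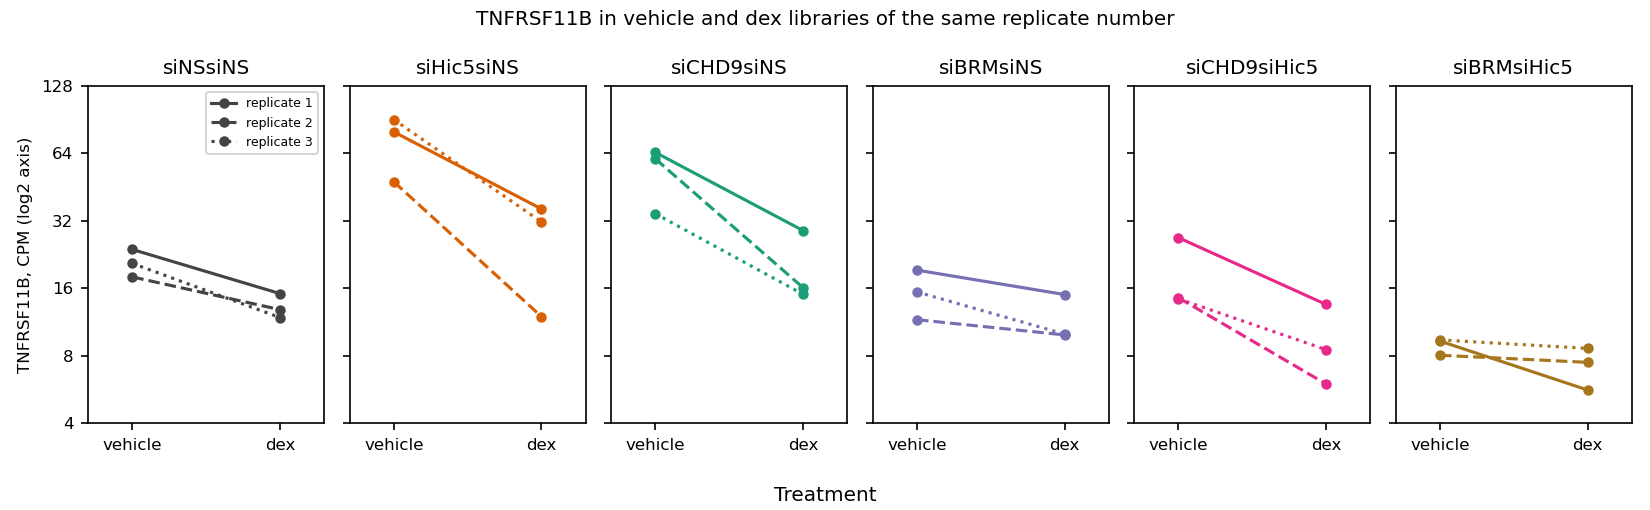
TNFRSF11B in CPM on a log2 axis, with vehicle at left and dex at right in each panel and a line joining the libraries of 1 replicate number. All 18 lines fall, and the vehicle level before the fall is between 34.5 and 90.6 CPM in siHic5siNS and siCHD9siNS and between 8.06 and 26.95 CPM in the other 4 conditions.

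Vehicle and dex libraries of the same number proved to be paired, so the fit with that replicate block is given beside these values. With it TNFRSF11B was at -1.53 ± 0.15 in siHic5siNS (adjusted p = 2.94e-06; 1 of 8 called, 8.93% of all genes) and at -1.41 ± 0.15 in siCHD9siNS (adjusted p = 1.79e-05; 3 of 8 called, 24.1%). Without the block both calls were lost when some single libraries were left out, at -1.59 to -1.10 in siHic5siNS (adjusted p = 0.0673 to 0.23, without vehicle library 1 or 3 or dex library 2 or 3) and -1.30 to -1.24 in siCHD9siNS (adjusted p = 0.149 to 0.294, without vehicle library 1 or 2 or dex library 2 or 3). They were lost too with only the groups compared (adjusted p = 0.428 and 0.122). With the block neither call was lost when any 1 pair was left out (adjusted p = 0.000323 at most).

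In the libraries labelled siCHD9siHic5 TNFRSF11B went from 26.95, 14.5 and 14.4 to 13.6, 5.99 and 8.53 CPM, with dex below vehicle throughout. It was called only with the block, at -0.99 ± 0.16 (adjusted p = 0.00119; 1 of 8, 4.74% of all genes), and kept that call without any 1 pair; without the block the adjusted p was 0.643 and 0 of 8 were called (0.455% of all genes). In siNSsiNS it went from 23.9, 18.01 and 20.7 to 15.2, 12.9 and 11.9 CPM, also without overlap. Here too the call needed the block, at -0.65 ± 0.16 (adjusted p = 0.0352; 1 of 8, 2.5%), and was lost without any 1 of the 3 pairs (-0.73 to -0.57, adjusted p = 0.0969 to 0.221); without the block 0 of 8 were called (0.343%, adjusted p = 1). In siBRMsiNS and siBRMsiHic5 TNFRSF11B was at -0.41 ± 0.16 and -0.30 ± 0.18 with the block and was not called (adjusted p = 0.161 and 0.366). In these 2 conditions 0 of 8 genes were called, both without the block (0.382% and 0.501% of all genes) and with it (3.91% and 5.95%). Among the dex comparisons with 0 calls without the block, unadjusted p under 0.05 was reached by 1 gene in the libraries labelled siCHD9siHic5 and by 0 in siNSsiNS, siBRMsiNS and siBRMsiHic5, and DESeq2 and limma called 0 in each.

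The size of the dex response was then compared between conditions. Without the block 0 of the 8 genes were called in any of the 7 differences, against 0% of all genes in 6 of them and 0.00659% for siCHD9siNS minus siNSsiNS. DESeq2 and limma called 0 as well, and 1 gene, TNFRSF11B for siBRMsiHic5 minus siHic5siNS, had an unadjusted p under 0.05. With the block that difference was called, at 1.24 ± 0.23 on the log2 scale (adjusted p = 0.0363; 0.184% of all genes), that is, a smaller fall with siBRMsiHic5 than with siHic5siNS. It was not called without the pair of siBRMsiHic5 number 2 (1.14, adjusted p = 0.123) or 3 (1.14, adjusted p = 0.209), without the pair of siHic5siNS number 2 (1.03, adjusted p = 0.116) or with TMM factors (1.20, adjusted p = 0.0502). The differences of siHic5siNS and siCHD9siNS from siNSsiNS were -0.88 ± 0.22 and -0.76 ± 0.22 with the block and were not called (adjusted p = 0.18 and 0.0588). All comparisons with siNSsiNS share its 6 libraries.

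Of the other 7 genes none was called without the block. In siCHD9siNS the block fit called SPP1, which went from 9.43, 5.36 and 9.83 to 4.02, 3.88 and 4.59 CPM (-0.96 ± 0.20, adjusted p = 0.00266), and SPARC, which went from 1469, 1460 and 1703 to 1301, 1312 and 1460 CPM (-0.18 ± 0.05, adjusted p = 0.00798). The dex and vehicle libraries did not overlap for either gene, though the highest SPARC dex library was level with the lowest vehicle library to the digits shown. Both calls were lost without pair 1 (adjusted p = 0.055 and 0.0582) and that of SPARC also without pair 3 (adjusted p = 0.052), and without the block neither was called (adjusted p = 0.691 and 0.843). BMP2 was lower with dex in 17 of 18 pairs, a count reached or passed by 2.45% of all genes, at log2 changes of -0.58 to -0.21, and was called in no condition by either fit. ALPL was higher with dex in 16 of 18 pairs (6.63% of all genes were higher in as many), at -0.04 to 0.43, and RUNX2 and BMP4 were lower in 12 and 9 of 18. MGP had its largest dex value in the libraries labelled siCHD9siHic5, at 2.04 ± 1.14, which rests on 18 vehicle and 73 dex counts and was not called (adjusted p = 1, and 0.0864 with the block). In siNSsiNS vehicle libraries the established dex-induced genes TSC22D3 and FKBP5 stood at 23.98 ± 2.16 and 55.0 ± 8.64 CPM. With dex they stood at 74.5 ± 17.4 and 154 ± 32.7 CPM. Both had higher means with dex in every other condition too, with TSC22D3 at 11.42 and 45.96 CPM in siBRMsiHic5. In siHic5siNS vehicle libraries FKBP5 was at 154.7 ± 21.14 CPM. NR3C1, the glucocorticoid receptor gene, was at 122.2 ± 19.83 CPM there, without overlap, against 82.73 ± 11.41 CPM in control vehicle libraries. Its other vehicle means were 76.66 to 105.6 CPM. The part of these levels in the TNFRSF11B responses was not tested.

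On the lists, dex calls without the block were few. FSTL3, a secreted binder of activins and BMPs, rose in siHic5siNS (0.87 ± 0.15, adjusted p = 0.00118) and in the libraries labelled siCHD9siHic5 (0.63 ± 0.15, adjusted p = 0.0451). PTH1R, the parathyroid hormone receptor, rose in siHic5siNS and siCHD9siNS by 1.55 ± 0.37 and 1.77 ± 0.43 (adjusted p = 0.0331 and 0.0399). These are low levels: PTH1R was at 0.919 CPM in control vehicle libraries, and in siCHD9siNS vehicle it was at 24.5% of that (log2 change -2.03 ± 0.43, adjusted p = 0.000746). LIF fell by 1.29 ± 0.25 in siHic5siNS (adjusted p = 0.00556).

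For each gene the 12 groups were also ordered by mean level. MGP ran from siNSsiNS vehicle (0.165 CPM) to siHic5siNS dex (13.2 CPM), a 79.8-fold span, and the 2 siHic5siNS groups were separated from the other 10 without overlap. SPP1 ran from siCHD9siHic5 dex (2.97 CPM) to siBRMsiHic5 vehicle (56.3 CPM), 19.0-fold. TNFRSF11B spanned 10-fold, from siBRMsiHic5 dex (7.26 CPM) to siHic5siNS vehicle (72.8 CPM), and no 2 neighbours in its order were separated. BMP4 spanned 9.97-fold, with a gap between the 8 lower groups and the 4 groups of siNSsiNS and siBRMsiNS. ALPL, BMP2, RUNX2 and SPARC spanned 5.04-, 3.63-, 3.33- and 1.70-fold. For RUNX2 the gap lay above both siBRMsiHic5 groups without overlap. For BMP2 the neighbours siCHD9siHic5 dex and siHic5siNS dex did not overlap, but siCHD9siHic5 vehicle, which ranks above both, ranged from 15.8 to 42.5 CPM and overlapped groups on either side. For SPARC, siCHD9siHic5 vehicle (at most 1457 CPM) and siCHD9siNS vehicle (from 1460 CPM) barely parted. The siBRMsiNS dex group, which ranks above both, reached down to 1187 CPM. Of the 11 neighbouring pairs of groups, 1 was without overlap for each of RUNX2, SPARC, MGP, BMP2 and BMP4 and 0 for ALPL, SPP1 and TNFRSF11B. The same count was not made over all genes, so it describes these genes only.

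The genes whose pattern over the 36 libraries was most like a member's were named by Pearson correlation of log2(CPM + 0.5). They describe shared library patterns only, since libraries of 1 group share a treatment. For BMP4 they were AKAP5 (0.963), SOCS3 (0.955) and MBOAT1 (0.951), and for MGP RBM48 (0.952), AQP7P1 (0.941) and IGSF22 (0.938). For SPP1 they were C4orf19 (0.932), SPATA12 (0.928) and PPT1 (0.925), and for BMP2 BTG1 (0.912), IFRD1 (0.905) and ZSWIM4 (0.894). RUNX2 was closest to SESN3 (0.908), KAT6A (0.907) and TBL1XR1 (0.905), and SPARC to VMP1 and LOC100289230 (both 0.893) and CSMD2 (0.883). The values were lower for ALPL, with ADCY3 (0.876) and BOK (0.857), and for TNFRSF11B, with VIP (0.862), TPST2 (0.796) and CYTL1 (0.781). Among the members, SPARC and SPP1 had the highest correlation, at 0.735.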

How the data were processed

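RNA-seq was done on total RNA of 36 libraries. The deposited table holds raw read counts per gene; per the submitters' processing notes TopHat2 2.1.1, edgeR and the build GRCh38 were used, while the counter, annotation and strand setting are not stated in any source used here. Library totals of 27442282 to 47148257 counts set the precision, and of the 15186 genes 30 have no symbol. Replicates differed by more than sampling noise in all 36 pairs (lowest chi-square per degree of freedom 9.41).

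Counts were tested with edgeR 4.0.16 in R 4.3.3 by quasi-likelihood F tests with upper-quartile factors on 12 group means (24 residual degrees of freedom). Genes needed more than 1 CPM in at least 3 libraries, which left 15179 and removed 7. P-values were Benjamini-Hochberg adjusted over all tested genes, with calls under 0.05, in 20 comparisons: 6 dex responses, 7 siRNA comparisons and 7 differences of dex responses. The SE is the log2 change divided by the square root of F. Scripts were tested on simulated data.

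Same-numbered vehicle and dex libraries deviated together (r = 0.458 to 0.922 over 18 pairs, and 36 of 36 libraries closest to their own number), and the labels give replicates as separate days, so a replicate block of 18 pairs was fitted as well. Across siRNA conditions the numbers paired siCHD9siNS and siCHD9siHic5 with siNSsiNS (lowest r = 0.283 and 0.373) and siCHD9siHic5 with siHic5siNS (lowest r = 0.18).

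The members and gene lists were chosen with earlier results of these data known. Named from each list were up to 4 called genes per comparison with the smallest p, and for each member the 3 genes with the highest correlation, of which 1 is not reported here. Alternatives were TMM or no scaling factors, other filters, limma 3.58.1 on log2(CPM + 0.5) or log2(CPM + 2), DESeq2 1.42.0, fewer groups and single libraries left out.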

Additional observations from a re-analysis of the deposited data

Results flagged for a closer look

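The dex response of TNFRSF11B differed between siBRMsiHic5 and siHic5siNS by a test of the difference itself, but only in the fit with the replicate block. With that block of vehicle and dex pairs, the edgeR log2 change was 1.24 ± 0.23 less negative with siBRMsiHic5 (adjusted p = 0.0363). That call was lost in 4 of 8 alternatives, with TMM factors or without certain single pairs (adjusted p at most 0.209). Dex lowered TNFRSF11B in 3 of 3 pairs of both conditions, by -1.53 ± 0.15 with siHic5siNS and -0.30 ± 0.18 with siBRMsiHic5. Without the block the difference was 1.15 ± 0.49 (adjusted p = 1).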

How the results depend on the processing

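The 30 called member changes were recomputed under the alternatives, which gave 447 values. Of these 425 kept their direction and side of the threshold, 22 kept their direction but missed it, and 0 reversed; 24 of the 30 changes kept their call throughout. The count of members called in the dex response moved from 0 to 1 with the replicate block in siNSsiNS and in siCHD9siHic5, and from 1 to 3 in siCHD9siNS. With only the groups compared it was 0 in siHic5siNS and 0 in siCHD9siNS, and leaving out single libraries gave 0 to 1 in both. In siBRMsiNS against siNSsiNS it ran from 0 to 1 without single libraries. For the difference siBRMsiHic5 minus siHic5siNS it was 1 with the replicate block. For siCHD9siHic5 against siHic5siNS the block added ALPL; it changed no other count of members. With limma on log2(CPM + 0.5) the change of MGP with siHic5siNS was 2.65 against 6.19, since the pseudocount exceeds the MGP level in the control. A filter on a mean of 5 CPM leaves MGP out. The blocked fits without single pairs were chosen after seeing the data. The numbers did not pair siHic5siNS, siBRMsiNS or siBRMsiHic5 with siNSsiNS (lowest r 0.0382, -0.124 and -0.213). The background counts over all genes moved more. Dex responses called 52 genes in siNSsiNS (17 to 379 over the alternatives), 133 in siHic5siNS (33 to 1355), 144 in siCHD9siNS (25 to 3654), 58 in siBRMsiNS (0 to 594), 69 in siCHD9siHic5 (19 to 720) and 76 in siBRMsiHic5 (5 to 903), the highest in each with the replicate block. In vehicle, siBRMsiNS called 979 (0 to 2365) and siCHD9siNS 4899 (3165 to 5787), while the other 5 siRNA comparisons stayed within 1.5 times. Of the differences of dex responses, siCHD9siNS minus siNSsiNS called 1 (0 to 612), and those of siHic5siNS and siCHD9siHic5 from siNSsiNS and of siCHD9siHic5 and siBRMsiHic5 from siHic5siNS called 0 (at most 28, 2, 22 and 28).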
